A study of Mus musculus with 16 samples.

Results

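Asprv1, Hoxc4, Bmp2 and Ryr3 were the 4 genes with the largest fall in splenic type 2 conventional dendritic cells (cDC2s) of mice with a Trim33 deletion in CD11c+ cells, 4 of the 17721 genes listed in the table of conventional DCs (cDCs). They were chosen by that fall, the cKO minus WT difference on the log2(TPM + 1) scale, among the 406 genes called lower in cDC2s. TPM is a level corrected for transcript length and scaled to the same total in every library. The cDC2 values of these genes are therefore a description, and tests are given only where the choice did not use the difference tested. The last gene inside the limit was Ryr3, with a log2 difference of -2.43, and the first genes outside it were Inafm1 (-2.36) and Egr1 (-2.34).

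RNA-seq was done on 16 libraries of DCs sorted from spleens of C57BL/6 mice aged 6 to 8 weeks. Every mouse carried Trim33 fl/fl. The WT mice had no further allele, and the cKO mice also carried Itgax-Cre, which expresses Cre from the promoter of the CD11c gene. Plasmacytoid DCs (pDCs, CD11c+ SiglecH+) gave 3 WT and 3 cKO libraries, cDC1s (CD11c+ SiglecH- MHC II+ CD24+ CD172a-) gave 2 and 2. cDC2s, sorted like cDC1s but as CD172a+ and CD24-, gave 3 and 3. CD11c is made by all 3 subsets, so in this cross Cre is not limited to cDC2s. Each library was a biological repeat that pooled cells of several mice, with more mice in a cKO pool than in a WT pool, so pool size and genotype cannot be told apart. The p-values measure the spread between these pools.

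TRIM33 is a ubiquitin ligase and chromatin reader that works with SMAD proteins and, in myeloid cells, with the transcription factor PU.1. cDC2s are the conventional DCs that present antigen mainly to CD4+ T cells, and cDC1s cross-present antigen to CD8+ T cells. The 4 genes belong to unrelated families. Asprv1 encodes a retroviral-like aspartic protease best known from the epidermis, where it acts in the processing of filaggrin. Hoxc4 encodes a homeobox transcription factor of the HoxC cluster. Bmp2 encodes a secreted ligand of the TGF-beta superfamily, which signals through type I and type II receptor kinases and SMAD1, SMAD5 and SMAD9. Ryr3 encodes a ryanodine receptor, a channel that releases calcium from the endoplasmic reticulum (ER).

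On mouse GRCm38.p6, Asprv1 (gene ID 67855) lies at chr6:86628174-86629710, Hoxc4 (15423) at chr15:103018097-103036856, Bmp2 (12156) at chr2:133552159-133562896 and Ryr3 (20192) at chr2:112631354-113217405 on the minus strand. RefSeq promoters of that build matched 2 of the 4, Asprv1 and Hoxc4. The stretches that follow are shown so that the start regions of the gene lower in cDC1s and cDC2s and of the HOX gene lower in cDC2s can be read. The Asprv1 stretch, chr6:86627924-86628163 on the plus strand, ends where the GENCODE gene begins. The window before the Hoxc4 start lies inside an exon of a longer GENCODE transcript, so only the bases around matches are given, with the match in capitals. They are from chr15:103034208-103034229 and chr15:103034250-103034270, both on the plus strand.
Asprv1: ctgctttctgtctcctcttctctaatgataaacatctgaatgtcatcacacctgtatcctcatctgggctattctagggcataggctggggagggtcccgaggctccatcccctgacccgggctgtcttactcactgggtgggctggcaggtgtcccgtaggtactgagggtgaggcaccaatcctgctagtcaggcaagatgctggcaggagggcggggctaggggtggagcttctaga
Hoxc4, PU.1 core: cattgaacTTCCTCttcctgcg
Hoxc4, SMAD box: gacctacaCAGACtgcaacac

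In the 250 bases before the start, searched on both strands, Hoxc4 held GAGGAA, the PU.1 core, on the minus strand (TTCCTC on the strand shown) and CAGAC, the SMAD box. GAGGAA was in 23.4% of 32536 promoters and CAGAC in 42.2%, so neither match is rare. The Hoxc4 window held no match to TGANTCA, the AP-1 site (6.73% of promoters), and the Asprv1 window held no match to any of the 3 motifs. GC content was 56.4% before Asprv1, above 62.1% of promoters, and 62.0% before Hoxc4, above 76.5%. A match to these letters is a description of the window and not a binding site.

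Trim33 fell to 46.3% of WT in cKO cDC1s (adjusted p = 0.000349 by limma) and to 41.3% in cKO cDC2s (adjusted p = 0.000126). In pDCs its mean was at 61.2% of WT (adjusted p = 0.0301), which missed the threshold used here but passed it with the replicate number as a block (adjusted p = 0.00361). Calls needed an adjusted p no higher than 0.01 and a log2 difference of 0.5 or more in size. By that rule 22.4% of genes were called in cDC1s, 7.15% in cDC2s and 1.05% in pDCs. In cDC2s 50.2% of the calls were higher in cKO, and 60.4% under median-of-ratios scaling. Depth was estimated at 18.0 to 20.1 M reads per library. The summed TPM of 10 cDC2 markers was 1960 to 2212 in WT cDC2s and 237 to 290 in WT cDC1s, and that of 10 cDC1 markers was 561 to 635 and 4925 to 4933. WT pDCs summed to 2728 to 2749 on the cDC2 list and 4083 to 4471 on the cDC1 list. Each sum separated cDC1s from cDC2s, but a high sum on either list was shared with pDCs. The 10 pDC markers separated pDCs from cDCs, at 18949 to 19178 in WT pDCs and 308 to 453 in WT cDCs. In bulk libraries, fewer cells of a type and less RNA per cell cannot be told apart.

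Hoxc4 had the most even values. Its TPM was 10.75, 10.45 and 11.33 in the 3 WT cDC2 libraries and 1.01, 1.04 and 1.03 in the cKO cDC2 libraries. The ranges lay far apart, and the libraries within each group were close to each other. The means were 10.8 ± 0.447 and 1.03 ± 0.0153 TPM (SD, n = 3 each), a 10.6-fold ratio. In cDC1s Hoxc4 was listed at 0 and 0.15 TPM in WT and 0.08 and 0.30 in cKO, and in pDCs at 0 to 0.09 in WT and 0.09 to 0.29 in cKO. These low values correspond to at most 5.8 reads in a cDC1 library, so Hoxc4 was near the limit of detection outside cDC2s.

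Bmp2 had the least even WT values. It stood at 21.92, 6.07 and 6.48 TPM in WT cDC2s and at 0.99, 1.09 and 0.77 in cKO cDC2s. Every WT library was above every cKO library, but WT library 1 was far above the other two. The ratio of the means, 11.5 ± 9.03 over 0.95 ± 0.164 TPM (SD, n = 3 each), was 12.1, and it was 6.61 without WT library 1. The same library had the highest sum of 20 immediate-early genes, which are induced within minutes of a stimulus: 30965 TPM, against 11699 and 14810 in the other two WT cDC2 libraries and 7805 to 8886 in cKO cDC2s. Of 19 such genes tested in cDC2s, 2 were called lower (3.56% of all genes), Egr1 (log2 difference -2.34) and Ier3 (-1.62). Of 18 alternatives, 2 lost the call of Egr1 and 7 that of Ier3. The median of the 19 was -1.24, against -0.03 for all genes tested, and 16 had an unadjusted p under 0.05 by limma. In cDC1s 7 of 19 were called lower (6.56% of all genes), with a median of -1.55 against 0.17. The part of these genes in the Bmp2 values was not tested. In cDC1s Bmp2 was at 0.08 TPM in both WT libraries and at 0.11 in both cKO libraries, and in pDCs it did not exceed 0.13.

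Ryr3 was the most abundant of the 3 genes that were near 0 outside cDC2s. Its TPM was 16.13, 25.17 and 25.36 in WT cDC2s and 3.4, 2.86 and 3.42 in cKO cDC2s. The means were 22.2 ± 5.27 and 3.23 ± 0.318 TPM (SD, n = 3 each), a 6.89-fold ratio with no overlap. In cDC1s Ryr3 was at 0.10 and 0.06 TPM in WT and 0.08 and 0.15 in cKO, and in pDCs it was at 0.02 or below. Although far below WT cDC2s, the cKO cDC2 libraries held more Ryr3 than any cDC1 or pDC library, as they did for Hoxc4 and Bmp2.

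Asprv1 differed from the other members in its levels across subsets. Its TPM was 19.74, 46.4 and 23.78 in WT cDC2s and 3.59, 3.32 and 3.37 in cKO cDC2s. The means were 30 ± 14.4 and 3.43 ± 0.144 TPM (SD, n = 3 each), an 8.75-fold ratio, and the ratio was 6.35 without WT library 2, the highest. That library also had the highest sum of 8 erythroid markers, 10737 TPM against 1273 and 2036 in the other two. Asprv1 was also expressed in cDC1s, at 80.95 and 39.66 TPM in WT and 4.82 and 13.1 in cKO.

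**Figure D1:**
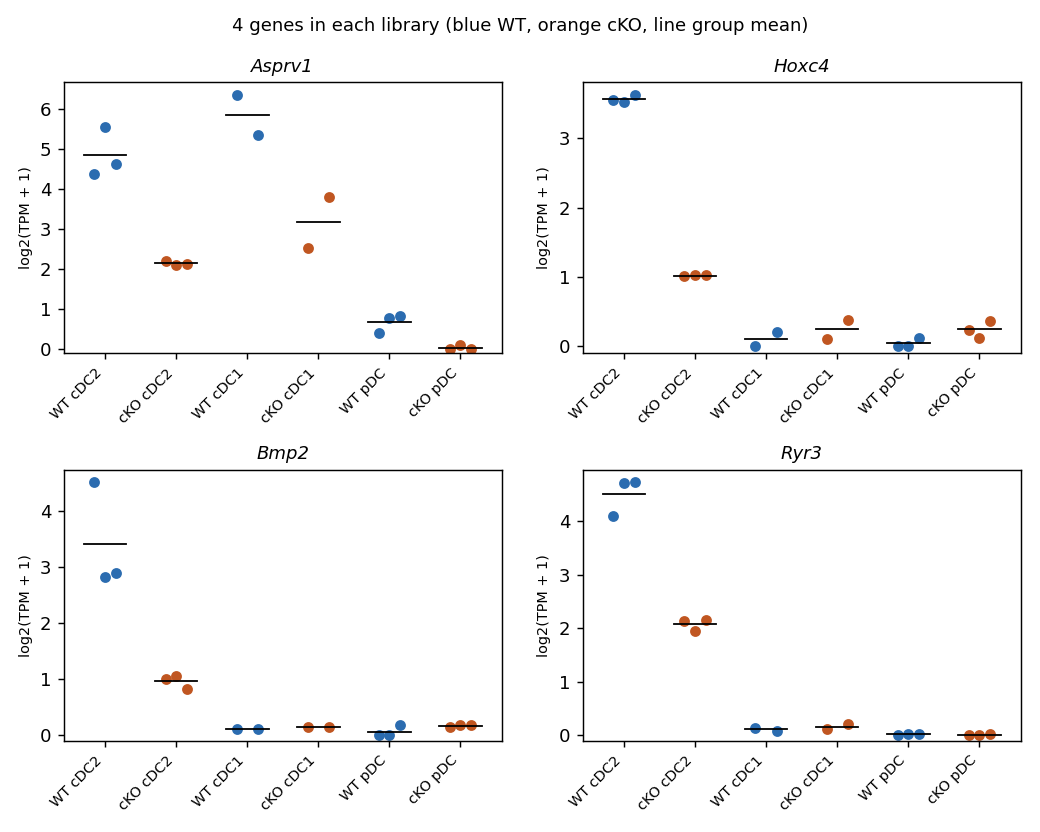
The plot of the 4 genes by library shows log2(TPM + 1) on the vertical axis for the 6 groups, with a point per library (blue WT, orange cKO) and a line at the group mean. Hoxc4, Bmp2 and Ryr3 were highest in WT cDC2s and below 0.5 outside cDC2s, while Asprv1 was also high in WT cDC1s. The 3 cKO cDC2 libraries of each gene lay together.

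The order of the Asprv1 means was WT cDC1s (60.3 ± 29.2 TPM, n = 2), WT cDC2s, cKO cDC1s (8.96 ± 5.85, n = 2), cKO cDC2s, WT pDCs (0.607 ± 0.251, n = 3) and cKO pDCs (0.0267 ± 0.0462, n = 3). The ranges of the 2 WT cDC subsets overlapped, and those of the other neighbours in this order did not. For Hoxc4, Bmp2 and Ryr3 the order began with WT cDC2s and cKO cDC2s, and the 4 remaining groups were at 0.30 TPM or below in every library. WT cDC2s held 145 times the Hoxc4, 144 times the Bmp2 and 278 times the Ryr3 of WT cDC1s by the ratio of means, with ranges that did not overlap. These ratios rest on a few reads in cDC1s and are approximate. The pDC and cDC values were deposited in separate tables, so levels set across them were not tested.

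Few genes shared so sharp a limit to cDC2s. Of 16617 genes listed in both tables, 9144 were at 5 TPM or more in every WT cDC2 library, and 10 of these (0.109%) were also below 0.2 TPM in every WT cDC1 and WT pDC library. Hoxc4, Bmp2 and Ryr3 were 3 of these 10, beside Cygb, Tmem132c, Slc44a5, Dmrtb1, Scel, Cdhr3 and Tmem273. The thresholds of this count were chosen after the values were seen. The members were picked for a fall from high WT cDC2 values, which this count uses too. Their place among the 10 is therefore a description and not a test.

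Asprv1 was lowered in cDC1s as well as in cDC2s. The difference between cDC1 groups did not choose the gene, although the cDC1 libraries entered the filter and the shared spread of the cDC fit. The log2 difference in cDC1s was -2.67 ± 0.47 (SE, 95% interval -3.72 to -1.62, adjusted p = 0.00182 by limma), with a WT to cKO ratio of 6.73. Of 11411 genes tested in cDC1s, 6.56% were called lower. Across 18 alternatives the adjusted p ran from 0.00115 to 0.0202, and the call was lost without cKO cDC1 library 1 (log2 difference -2.03, adjusted p = 0.0202) and without WT cDC1 library 1 (-2.17, adjusted p = 0.0178). An exact permutation test of 2 against 2 libraries gave p = 0.333, the smallest p it allows. The cDC1 contrast called 70.7% of its genes higher, and 50.0% under median-of-ratios scaling, with Asprv1 lower under each.

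Hoxc4, Bmp2 and Ryr3 passed the filter on low values in the cDC fit only through their cDC2 libraries, so no test of them in cDC1s is given. In pDCs all 4 genes were below a mean of 1 TPM and were not tested. Asprv1 was at 0.32, 0.71 and 0.79 TPM in WT pDCs and at 0, 0.08 and 0 in cKO pDCs. The groups did not overlap, although the values stand for an estimated 4.1, 8.9 and 10.2 reads against 0, 1.1 and 0. The exact permutation test gave p = 0.1, the smallest p it allows, and limma without the filter gave a log2 difference of -0.63 (adjusted p = 0.0563). Of 11299 genes tested in pDCs, 0.239% were called lower and 0.814% higher.

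The nearest neighbour of Asprv1 that was measured well, Mxd1, was lower in both cDC subsets. Mxd1 encodes a MAX partner that opposes MYC, and it lies 17.3 kb after Asprv1. Its TPM was 60.63, 72.12 and 49.46 in WT cDC2s and 20.76, 20.10 and 24.74 in cKO cDC2s, a log2 difference of -1.42 (adjusted p = 0.000981 by limma). In cDC1s it was 125.33 and 77.73 in WT and 12.88 and 14.59 in cKO (-2.76, adjusted p = 4.01e-05). Both falls were called under all 18 alternatives. In pDCs Mxd1 was not called, with adjusted p values of 0.0437 to 0.507 over 13 alternatives.

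Many genes of mature DCs were lower in cKO cDC1s, and few were called in cDC2s. Of 15 such genes, 13 were called lower in cDC1s, where 6.56% of all genes were, with a median log2 difference of -2.68, against 0.17 for all genes tested, among them the chemokine receptor gene Ccr7 (-4.37, adjusted p = 8.25e-05 by limma) and Il12b (-4.18, adjusted p = 1.58e-05). In cDC2s 2 of 15 were lower, Ccr7 (-1.91, adjusted p = 0.0044) and the co-stimulatory gene Cd86 (-0.85, adjusted p = 0.000927, called under all 18 alternatives), with a median of -0.47 against -0.03, where 3.56% of all genes were called lower. The Ccr7 call in cDC2s was lost under 7 of 18 alternatives, among them no filter (adjusted p = 0.0137), the replicate block (0.0223) and leaving out any cKO cDC2 library or WT cDC2 library 1 or 2 (0.0104 to 0.0176). None of 11 was called in pDCs by limma (3 at an unadjusted p under 0.05). The summed TPM of the 15 was 3615 and 2053 in WT cDC1s, in the order of the Asprv1 values, and 484 and 599 in cKO cDC1s. In WT cDC2s it was 2470, 2955 and 2383, not in the order of the Asprv1 values, and in cKO cDC2s 1249 to 1637, with no overlap. In cDC2s 7 of the 15 had an unadjusted p under 0.05 by limma. The part of these genes in the Asprv1 and Mxd1 values was not tested.

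**Figure D2:**
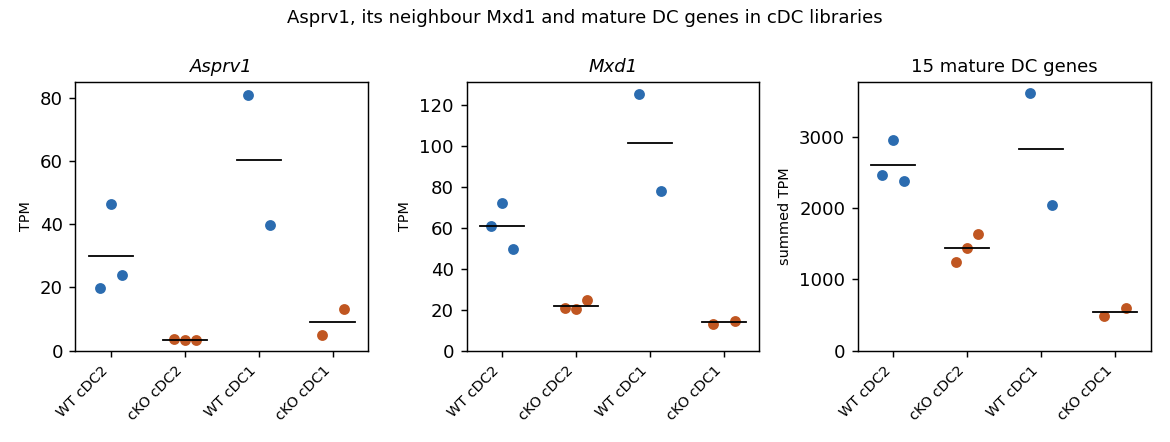
The plot of Asprv1, Mxd1 and the summed TPM of 15 mature DC genes shows TPM on linear vertical axes for the 10 cDC libraries, a point per library (blue WT, orange cKO) and a line at the group mean. In all 3 panels every WT library lay above every cKO library of its subset, and WT cDC1 library 1 was the highest of all.

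Other aspartic proteases and the epidermal genes were not called. Of 15 aspartic protease genes, 7 besides Asprv1 were tested in cDCs, and limma called none in cDC1s or cDC2s (2 and 2 at an unadjusted p under 0.05). The lysosomal proteases Ctsd, at 136 TPM in WT and 148 in cKO cDC2s, and Napsa, at 930 and 956, were far more abundant. In pDCs 7 were tested and none was called by limma (none at an unadjusted p under 0.05). None of 6 tested epidermal differentiation genes was called in either cDC subset, and none had an unadjusted p under 0.05 by limma. Their list varied widely between libraries. It summed to 5.74, 34.58 and 24.61 TPM in WT cDC2s and to 33.61, 3.98 and 6.36 in cKO cDC2s. In cDC1s the sums were 11.82 and 1.38 in WT and 0.76 and 31.15 in cKO. Within each of these groups the libraries stood in the order of their Asprv1 values. The part of this in the Asprv1 values was not tested. Flg, the gene of filaggrin, was at 0.02 TPM or below in every cDC library.

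Hoxc4 was the highest of the HOX transcripts of WT cDC2s and the one that fell furthest. HOX genes encode homeobox factors that set position along the body axis and act in blood progenitors. Of 39 HOX genes, 24 were listed in the cDC table and 7 were tested. In cDC2s Hoxa5 was also called lower: its TPM was 6.81, 7.58 and 7.85 in WT and 2.87, 1.5 and 2.43 in cKO, a log2 difference of -1.39 ± 0.18 (SE, adjusted p = 0.000981 by limma). That call held under all 18 alternatives, with adjusted p values of 0.000467 to 0.00651. It was 1 of 6 tested besides Hoxc4, where 3.56% of all genes were called lower. The other 5 were not called. Hoxa3 (-0.92, adjusted p = 0.0164), Hoxa6 (-0.87, adjusted p = 0.0156) and Hoxa7 (-0.80, adjusted p = 0.0167) came closest, and Hoxa4 (-0.28) and Hoxb4 (-0.18) differed least. Hoxa6 was called with FPKM (-0.67, adjusted p = 0.00965), and without cKO cDC2 library 1 both Hoxa6 (-1.12, adjusted p = 0.0036) and Hoxa7 (-0.98, adjusted p = 0.00932) were called. The median over the 6 without Hoxc4 was -0.83, against -0.03 for all genes tested.

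The neighbours of Hoxc4 in its cluster were low. Hoxc6 was at 0.47, 0.88 and 1.04 TPM in WT cDC2s and at 0.07, 0.12 and 0.12 in cKO cDC2s, which is under the filter and was not tested, though the ranges did not overlap. Hoxc5, which ends 0.7 kb before Hoxc4, was at a mean of 0.117 TPM in WT cDC2s and 0 in cKO cDC2s. On the other side, Smug1, a DNA repair gene 116.4 kb away, was at 4.60 TPM in WT cDC2s and 3.62 in cKO cDC2s (adjusted p = 0.383 by limma).

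HOX genes did not follow the cDC2 pattern elsewhere. In cDC1s Hoxa7 was called higher, from 1.85 and 1.19 TPM in WT to 4.09 and 3.92 in cKO (log2 difference 1.00, adjusted p = 0.00718 by limma), and that call was lost under 8 of 18 alternatives. In cDC1s 15.8% of all genes were called higher. In pDCs none of 8 tested HOX genes was called by limma (1 at an unadjusted p under 0.05). The HOX genes of all clusters together summed to 71.6 to 99.97 TPM in pDCs (30 genes listed) and to 40.8 to 47.7 in WT cDC2s (24 listed). Hoxc4 did not exceed 0.29 in any pDC library.

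**Figure D3:**
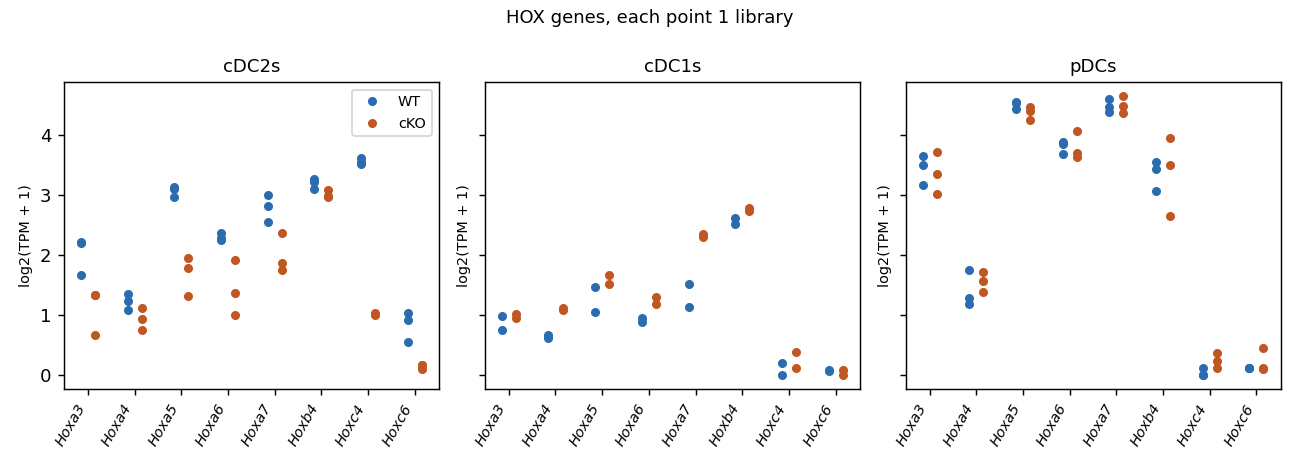
The plot of 8 HOX genes shows log2(TPM + 1) on the vertical axis in cDC2s, cDC1s and pDCs, with a point per library (blue WT, orange cKO). Hoxc4 and Hoxc6 were below 0.5 outside cDC2s, and pDCs held Hoxa5 and Hoxa7 at the highest levels of the 8 genes with overlapping WT and cKO points.

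Of the HOX cofactor genes, which encode the PBX, MEIS and PKNOX partners of HOX factors, 6 of 9 were tested in cDCs. Meis3 was called lower in cDC2s (3.56% of all genes), from 12.45, 11.17 and 19.62 TPM to 4.22, 4.08 and 3.12 (log2 difference -1.65, adjusted p = 0.000595 by limma, 0.000338 to 0.00704 over 18 alternatives). In cDC1s it was lower as well (6.56% of all genes), from 2.31 and 1.89 TPM to 0.44 and 0.52 (-1.06, adjusted p = 0.0059 by limma), a call lost under 7 alternatives. The other 5 were not called in either subset. In pDCs none of 7 was called by limma (1 at an unadjusted p under 0.05).

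Bmp2 was the main BMP ligand of WT cDC2s together with Bmp8a. Of 14 ligand genes, 12 were listed and 2 were tested in cDCs. Bmp8a was at 3.48, 5.07 and 8.82 TPM in WT cDC2s and at 6.65, 5.21 and 5.37 in cKO cDC2s (log2 difference 0.06, adjusted p = 0.889 by limma), so it overlapped where Bmp2 did not. It did not exceed 0.13 TPM in any cDC1 library. pDCs held Bmp6 instead, at 10.27, 7.84 and 6.94 TPM in WT and 9.5, 5.87 and 7.86 in cKO (-0.10, adjusted p = 0.794), while Bmp6 was at 0.10 or below in cDCs. Each of the 3 ligands exceeded 0.5 TPM in a single sorted subset, and Bmp8a and Bmp6 overlapped between WT and cKO in theirs.

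**Figure D4:**
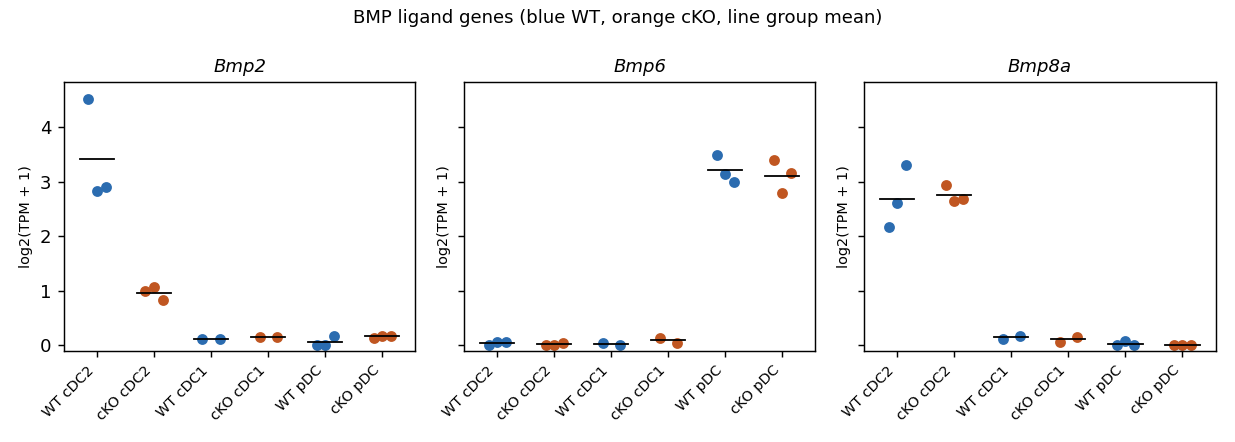
The plot of Bmp2, Bmp6 and Bmp8a shows log2(TPM + 1) on a shared vertical axis for the 6 groups, a point per library (blue WT, orange cKO) and a line at the group mean. Bmp2 and Bmp8a were above 0.5 in cDC2s alone and Bmp6 in pDCs alone.

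The genes that receive and pass on the BMP signal were not called. Of 7 receptor genes 5 were tested, and limma called none in cDC1s, cDC2s or pDCs (1, 1 and 2 at an unadjusted p under 0.05). The type II receptor Bmpr2 was at 11.97, 12.08 and 11.67 TPM in WT cDC2s and at 12.44, 10.76 and 11.49 in cKO cDC2s. The type I receptor Acvrl1 was higher in cDC1s, at 67.24 and 66.15 in WT and 68.78 and 64.67 in cKO, than in cDC2s, at 9.51 to 10.44 in WT and 9.68 to 12.21 in cKO. Bmpr1a, a type I receptor of BMP2, was at 0.48, 0.46 and 0.26 TPM in WT cDC2s and 0.15, 0.20 and 0.07 in cKO cDC2s and was not tested.

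Of 6 SMAD genes of the pathway 4 were tested, and none was called (2, 2 and 0 at an unadjusted p under 0.05 by limma in cDC1s, cDC2s and pDCs). In cDC2s Smad4, the shared SMAD, had a mean of 50.1 TPM in WT and 67.1 in cKO (log2 difference 0.41, adjusted p = 0.0111), and Smad1 had 30.9 and 23.7 (-0.37, adjusted p = 0.0221). None of 4 tested antagonist genes was called (1, 0 and 1 at an unadjusted p under 0.05 by limma). None of the target genes tested, 4 in cDCs and 3 in pDCs, was called either (3, 1 and 2 at an unadjusted p under 0.05 by limma). Id2, a BMP target and a factor of cDC1 development, was at 713 TPM in WT cDC2s and 537 in cKO cDC2s (-0.40, adjusted p = 0.133). Id3 in pDCs was at 8.50, 22.71 and 10.73 TPM in WT and 37.71, 44.32 and 30.80 in cKO (1.47, adjusted p = 0.0431), which passed the threshold with the replicate number as a block (adjusted p = 0.00267). Id2 in pDCs passed it with the block as well (0.51, adjusted p = 0.00875 by limma). With that block 2 of the 3 targets tested in pDCs were called higher, as were 260 of all 11299 genes. The labels state no pairing by number.

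The genes next to Bmp2 were far away. Tmx4, 1031.6 kb after it, was at 8.05 TPM in WT cDC2s and 7.93 in cKO cDC2s (adjusted p = 0.943 by limma), and Fermt1, 606.1 kb before it, was too low to be tested.

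Ryr3 differed from the other ER calcium release channel genes in its levels. Of the 5 other channel genes 4 were tested, and none was called in cDC1s, cDC2s or pDCs by limma (2, 1 and 1 at an unadjusted p under 0.05). In cDC2s Ryr1, the ryanodine receptor first known from skeletal muscle, was at 4.31, 3.44 and 5.24 TPM in WT and at 3.12, 2.76 and 2.89 in cKO (log2 difference -0.43, adjusted p = 0.0514), and its ranges did not overlap. The inositol trisphosphate receptors Itpr1 (42.8 and 41.9 TPM in WT and cKO cDC2s), Itpr2 (8.36 and 8.15) and Itpr3 (32.3 and 27.1) were present in both groups. Ryr2 did not exceed 0.05 TPM in any library. Ryr3 therefore stood below Itpr1 and Itpr3 in WT cDC2s and below Itpr2 as well in cKO cDC2s.

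**Figure D5:**
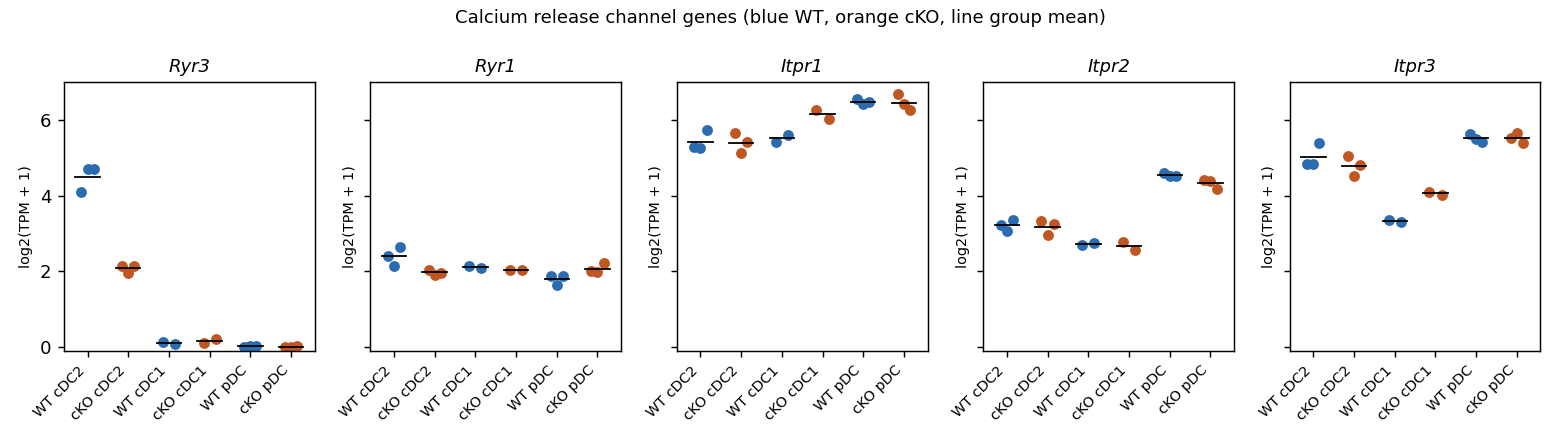
The plot of 5 ER calcium release channel genes shows log2(TPM + 1) on a shared vertical axis for the 6 groups, a point per library (blue WT, orange cKO) and a line at the group mean. Ryr3 separated WT from cKO cDC2s and was near 0 elsewhere, while Itpr1, Itpr2 and Itpr3 were present in all 6 groups.

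Among 30 partner genes of ER calcium handling, 19 were tested in cDCs. In cDC2s 2 were called, both lower, where 3.56% of all genes were called lower. They were the voltage-gated calcium channel genes Cacna1e, from a mean of 9.56 ± 1.89 to 2.34 ± 0.64 TPM (SD, n = 3 each, log2 difference -1.66, adjusted p = 0.000265 by limma), and Cacna1s, from 5.89 ± 1.29 to 1.96 ± 0.304 TPM (-1.21, adjusted p = 0.000904). Both calls held under all 18 alternatives. In cDC1s 7 of 19 were called, 4 higher and 3 lower, where 15.8% of all genes were called higher and 6.56% lower. The lower ones were Cd38 (-1.64, adjusted p = 0.000336), Cacna1e (-0.92, adjusted p = 0.00621) and Cacna1s (-0.88, adjusted p = 0.00472). The higher ones were the calcium pump gene Atp2a2 (0.71), Fkbp1a (0.53), Calm3 (0.66) and Homer3 (0.92), of which Fkbp1a and Calm3 were not called under median-of-ratios scaling. Of 18 alternatives, 7 lost the cDC1 call of Cacna1e, 5 that of Cacna1s, 5 that of Atp2a2 and 7 that of Fkbp1a, mostly when a cDC1 library was left out, and none lost that of Cd38. In pDCs Cacna1e was the one of 21 tested that was called, where 0.239% of all genes were called lower. It went from 137 to 87.9 TPM (-0.63, adjusted p = 0.00857 by limma), and that call was lost under 9 of 13 alternatives. Cacna1e was thus called lower in each subset, and under every alternative in cDC2s alone.

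Ryr3 and Aven, an inhibitor of apoptosis, overlap by 3219 bases on opposite strands in GENCODE. Reads from that stretch cannot be assigned to 1 gene, since the use of strand in the counting is not stated. Aven was at a mean of 14.4 TPM in WT cDC2s and 17.4 in cKO cDC2s (adjusted p = 0.192 by limma), the opposite direction to Ryr3. Fmn1, 110.3 kb on the other side of Ryr3, was at 1.82 and 0.923 TPM (adjusted p = 0.0298).

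Over the 10 cDC libraries, log2(TPM + 1) of Hoxc4, Bmp2 and Ryr3 correlated with each other, with Pearson's r of 0.95 for Hoxc4 and Bmp2, 0.97 for Hoxc4 and Ryr3 and 0.90 for Bmp2 and Ryr3. Asprv1 correlated with them at 0.09 to 0.22. These points share 4 groups, and the first values describe genes that were high in the same 3 libraries. The genes closest to Hoxc4 were Mid2 (r = 0.995), Sel1l3 (0.991), Tmod2 (0.990), Ets1 (0.989) and Sema3f (0.988). Those closest to Ryr3 were Srms (0.996), Kcnk5 (0.993), the sodium channel gene Scn3a (0.993), Ets1 (0.992) and Tmod2 (0.991), so Ets1, a transcription factor, and Tmod2, which caps actin filaments, stood on both lists. Ets1 had mean TPM of 9.16 in WT cDC2s, 2.30 in cKO cDC2s, 0.625 in WT cDC1s and 0.89 in cKO cDC1s.

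The genes closest to Bmp2 were Nhsl1 (r = 0.985), Tbc1d30 (0.969), Sel1l3 (0.966), AB010352 (0.963) and Tgif2 (0.962), a homeobox repressor of SMAD-driven transcription at 30.4 TPM in WT cDC2s, 14.2 in cKO cDC2s and 8.62 and 8.61 in WT and cKO cDC1s. Those closest to Asprv1 were Tnnt2 (0.966), Wbp1 (0.952), Cracr2b (0.952), Iqcb1 (0.951) and Fut8 (0.950). Their means were lower in cKO in both cDC subsets. These genes were picked for a pattern like that of Asprv1, so this is a description and not a test. Fut8 was at 38.5 and 29.2 TPM in WT and cKO cDC2s. Tnnt2, a troponin gene, was at 1.66 and 0.123 TPM in WT and cKO cDC2s and at 4.46 and 0.385 in WT and cKO cDC1s.

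Markers of the sorted cells also differed by genotype. In cDC2s 4 of 10 cDC2 markers were called lower (3.56% of all genes), Cd4 (log2 difference -1.37), Esam (-1.17), Irf4 (-1.08) and Dtx1 (-1.20), and 2 were higher (3.59% of all genes), Itgam (1.03) and Clec10a (1.55). Esam and Cd4 mark a fraction of splenic cDC2s that depends on NOTCH2, and Dtx1 is a NOTCH target. The calls of Cd4, Esam, Itgam and Clec10a held under all 18 alternatives. Irf4 was lost under 4, with no filter (adjusted p = 0.0113) and without each cKO cDC2 library, and Dtx1 under 3, with the replicate block (0.0121) and without cKO cDC2 library 2 or 3. In cDC1s 2 of the 10 were also called lower (6.56% of all genes), Cd4 (-1.90) and Esam (-2.29). Higher there were 2 (15.8% of all genes), Itgam (2.10) and Clec10a (1.72). In pDCs 1 of 8 tested was called, Itgam (2.92), where 0.814% of all genes were higher. The shifts of these 4 markers were thus not limited to cDC2s.

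Of 15 monocyte and macrophage markers 4 were called higher in cKO cDC2s (Lyz2, Csf1r, Ccr2 and Fcgr1), where 3.59% of all genes were, and none lower. The summed TPM of the list was 1522 to 2065 in WT and 2863 to 3736 in cKO. Of 18 alternatives, 10 lost the call of Ccr2, 10 that of Fcgr1, 4 that of Csf1r and 1 that of Lyz2. Among NK cell markers 1 of 2 tested (3.59% of all genes), Klrk1, was called higher in cKO cDC2s (1.03, adjusted p = 0.0028 by limma). The list summed to 23.4 to 39.9 TPM in WT and 57.8 to 66.2 in cKO. Among B cell markers 2 of 5 tested (3.56% of all genes), Ms4a1 (-1.46) and Cr2 (-1.40), were called lower. The list summed to 53.3 to 68.4 TPM in WT and 52.5 to 55.3 in cKO. Among endothelial and stromal markers 1 of 2 tested (3.56% of all genes), Pecam1 (-0.51), was called lower, a call lost under 12 of 18 alternatives. The list summed to 67.6 to 74.4 in WT and 49.2 to 57.1 in cKO. T cell markers summed to 28.2 to 31.9 TPM in WT and 25.3 to 29.6 in cKO, and neutrophil markers to 10.6 to 30.6 and 20.6 to 68.1. Of 9 tested pDC markers 1 was called higher in cKO cDC2s (3.59% of all genes), Cox6a2, from 2.84 to 37.7 TPM (3.35, adjusted p = 4.81e-05 by limma, called under all 18 alternatives). It was also higher in cDC1s (3.53) and pDCs (1.46). In cDC1s Klrk1 (1.00) was higher and Ms4a1 (-1.48) lower. Of the 15 monocyte and macrophage markers, cDC1s had 3 higher (15.8% of all genes), Csf1r, Ccr2 and Ly6c2. Lower there were 3 (6.56% of all genes), Vcam1, Spic and Treml4. Each of these cDC1 calls was lost under at most 6 of 18 alternatives. The part of these shifts in the fall of Asprv1, Hoxc4, Bmp2 and Ryr3 was not tested.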

How the data were processed

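The authors sequenced single-end reads of 50 bases on BGISEQ-500 and, per the labels, estimated expression with RSEM 1.2.12 after alignment with Bowtie2 2.2.5. HISAT2 2.0.4 and mm10 are also named in the submitters' processing notes. The deposited TPM values were used, and the deposited FPKM values served for depth and as an alternative. The release of the transcript reference and the use of strand are not stated. All 32 value columns were mapped to libraries from the titles.

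RefSeq named 17667 of 17721 genes in the cDC table and 17079 of 17128 in the pDC table. limma 3.58.1 in R 4.3.3 (lmFit, eBayes with trend) was run on log2(TPM + 1), keeping genes whose mean TPM was 1 or more. This replaces the count model of the study, since the files hold no counts. All 10 cDC libraries were fitted together (4 group means), and the 6 pDC libraries apart. All tests were two-sided, and p-values were adjusted by the Benjamini-Hochberg method over every tested gene. Fold changes on this scale understate those of low genes. A self-test ran on simulated data.

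Depth was inferred from the steps of low FPKM values (506 cDC genes), with a largest error of 0.97% in simulation. Read estimates cover counting error only. Figures and tables were made with Python 3.11.15.

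The members and lists were chosen with earlier results of these data known. Genes named were the members, called genes of the lists, the 5 closest genes by correlation, the nearest neighbours and the next 2 genes by fall. Not every called gene of a list is named. Other list genes were named after their values were seen. Replicate numbers were checked for pairing: deviations from the group means of same-numbered pDC libraries correlated at 0.31, 0.39 and 0.21. The labels state no pairing, so the main pDC fit left the libraries unpaired and the block was an alternative. The cDC2 pairs were at -0.25, 0.25 and -0.16. Both cDC1 pairs were at -0.23, the same value by construction, since 2 libraries deviate from their mean by opposite amounts. Alternatives were a pseudocount of 0.1, no filter, 2 other scalings, FPKM, no variance trend, a replicate block, each subset alone and each library left out.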

Additional observations from a re-analysis of the deposited data

How the results depend on the processing

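No result reversed. Asprv1 in cDC1s (log2 difference -2.67) ran from -3.31 to -2.03 with each library left out, and 16 of 18 alternatives kept the call, the replicate block among them (adjusted p = 0.00803). In cDC2s, Hoxc4 (-2.55) was -3.28 with a pseudocount of 0.1, -2.49 with median-of-ratios scaling and -2.07 with FPKM. Bmp2 (-2.45) was -3.21 with a pseudocount of 0.1, and from -2.75 to -1.90 with each library left out. Ryr3 (-2.43) was -2.72 with a pseudocount of 0.1 and -2.17 with FPKM. Asprv1 (-2.71) stayed within 1 SD under all 18.

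Genes called in cDC1s (2555) ranged from 802 to 2875 with each library left out. In cDC2s (816) they ranged from 316 to 912, and were 426 with cDC2 libraries alone. In pDCs (119) they ranged from 12 to 97, and were 24 with no filter and 56 with no variance trend. The lowest counts came without cKO cDC1 library 1, cKO cDC2 library 3 and WT pDC library 3. With a replicate block cDC2s had 356 calls and pDCs 335, a rise in the subset whose same-numbered libraries correlated, though the labels state no pairing. In cDC1s the block gave 1890 and crossed numbers, added after seeing the data, gave 2091. Which causes lie behind these shifts was not tested. Fits without 1 cDC1 library assume that the lone library varies like the other groups. Depth limits Hoxc4, Bmp2 and Ryr3 outside cDC2s and all 4 genes in pDCs.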
